A study of Mus musculus with 24 samples.

Results

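The genes described here are 34 interferon-induced antiviral effectors, measured in B16F10 cells, a pigmented mouse melanoma line, across 4 genotypes and 2 treatments. They were chosen by gene symbol from genes known to be induced by interferon, with earlier results of these data known. Contrasts of the members with all genes are therefore descriptions. A gene counted as a member when its symbol had counts in any library. All 34 did, out of 15738 named genes in the count table. The genotypes were a control line (called a control knockout in the protocol and WT in the genotype label), knockouts of Rnf31 or of Atg5, and a double knockout that lacks both. Rnf31 is the catalytic subunit of the complex that builds linear ubiquitin chains, and Atg5 is needed to form autophagosomes. Each line was treated with vehicle or with the cytokine TNFα at 2 ng/ml, both for 24 h, which gave 8 groups of 3 libraries labelled as biological replicates, 24 libraries in all. Whether each line was a clone or a pool, and which bases were edited, is not given in the sources used here. A difference between lines therefore holds for these lines. The labels do not say that the replicates were separate cultures, so the spread behind each p-value is that between these libraries alone. The RNA is from bulk cultures, in which a few cells with much RNA and many cells with little cannot be told apart.

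Type I interferons bind a receptor on the cell surface and, through the kinases Jak1 and Tyk2, activate transcription factors that join Irf9 in a complex. This complex binds the interferon-stimulated response element, a repeat of the bases GAAA, in front of the effector genes. The effectors act against viruses at many steps: they hold virus particles at the membrane, bind foreign RNA, or make signals that degrade RNA. Others attach the ubiquitin-like protein Isg15 to other proteins, or turn a nucleotide into a chain terminator of RNA synthesis. Interferon can be made by the cells themselves after sensors of RNA or DNA in the cytoplasm are triggered.

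Each library held between 19425795 and 33385502 counts over the named genes. Levels are given as CPM, that is counts scaled by TMM library size. The tested set held 13527 genes, and 33 of the 34 members were in it: Oas3 had too few counts. Transcripts of the targeted genes were still present in the knockout lines. Atg5 stood at 54.7 ± 6.26 CPM (mean ± SD, n = 3) in control and 22.2 ± 2.35 in Atg5 knockout vehicle libraries. Rnf31 stood at 9.79 ± 1.08 CPM in control, 8.04 ± 0.421 in the Rnf31 knockout and 6.62 ± 0.222 in the double knockout, so its transcript level is a weak check of the Rnf31 labels. Each transcript also moved in the line where it was not targeted. Rnf31 read 13.9, 12.3 and 13.5 CPM in the Atg5 knockout vehicle libraries. Atg5 read 42.9, 45.1 and 46.8 CPM in the Rnf31 knockout vehicle libraries. All 7 melanocyte markers listed were measured. Of 10 leukocyte markers only Lyz2 had a row, at 0.19 to 2.63 CPM. Of 4 endothelial markers Pecam1 had a row, at 0 to 0.37 CPM, and of 5 fibroblast markers 3 had one. Control vehicle replicate 2 stood apart from the other 2 libraries of its group, with a chi-square of 32.1 and 20.2 for each degree of freedom against them, where all other pairs within a group reached at most 9.04. Results that change without this library are given with and without it.

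The windows of promoter sequence that RefSeq places around transcript starts (250 bases before to 50 after, GRCm38.p6) were matched to 23 of the 34 members by symbol. They were searched on both strands for the core of the interferon-stimulated response element, set here as 2 copies of GAAA with any 2 bases between them, so that overlapping copies count each. Of the 23 members, 9 (39.1%) held a match: Ifit1, Ifit3, Ifit3b, Isg15, Oas1a, Oas3, Rsad2, Bst2 and Ifitm3. Among the 10909 genes of the count table with a window, 383 (3.51%) held one, as did 3.44% of all 32851 windows. The shorter core GAAANNGAA, searched in the same way, was found in 11 members (47.8%) and in 8.31% of genes of the count table. The 7 stretches printed next run from 160 bases before the start to 19 after it, 180 bases each, 5′ to 3′ in the direction of transcription, with the matched core in capitals. Of these, 6 show how the copies are arranged in members of different roles, and the seventh, Ifit2, is shown because it is the member that was lower in the Atg5 knockout. A run of capitals longer than 10 bases is 2 or more overlapping copies, and copies on the other strand read TTTC.
Ifit1: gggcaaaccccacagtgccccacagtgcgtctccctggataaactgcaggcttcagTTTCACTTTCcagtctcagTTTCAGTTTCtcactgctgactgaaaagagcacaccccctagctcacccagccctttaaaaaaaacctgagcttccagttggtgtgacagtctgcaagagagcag
Ifit3: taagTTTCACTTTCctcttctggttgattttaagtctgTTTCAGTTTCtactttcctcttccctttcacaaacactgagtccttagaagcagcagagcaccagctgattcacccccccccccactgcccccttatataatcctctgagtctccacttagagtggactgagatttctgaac
Isg15: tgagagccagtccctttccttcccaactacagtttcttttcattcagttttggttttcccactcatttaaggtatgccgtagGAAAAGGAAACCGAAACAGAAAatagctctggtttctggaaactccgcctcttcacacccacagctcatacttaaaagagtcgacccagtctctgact
Oas1a: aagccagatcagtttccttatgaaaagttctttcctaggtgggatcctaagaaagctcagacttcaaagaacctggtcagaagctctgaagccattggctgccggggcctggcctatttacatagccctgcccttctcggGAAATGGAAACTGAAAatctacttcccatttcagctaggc
Rsad2: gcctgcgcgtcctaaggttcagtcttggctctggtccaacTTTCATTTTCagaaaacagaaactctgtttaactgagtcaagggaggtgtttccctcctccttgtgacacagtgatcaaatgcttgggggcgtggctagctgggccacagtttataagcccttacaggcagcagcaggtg
Bst2: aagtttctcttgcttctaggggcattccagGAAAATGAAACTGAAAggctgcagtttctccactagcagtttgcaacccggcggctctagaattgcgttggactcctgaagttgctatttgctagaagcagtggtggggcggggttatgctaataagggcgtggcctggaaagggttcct
Ifit2: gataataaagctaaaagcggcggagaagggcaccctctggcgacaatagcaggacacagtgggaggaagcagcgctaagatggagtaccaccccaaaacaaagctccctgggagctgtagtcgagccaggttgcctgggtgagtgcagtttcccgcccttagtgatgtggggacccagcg
They lie at chr19:34640729-34640908 (+ strand), chr19:34583369-34583548 (+), chr4:156200799-156200978 (- strand), chr5:120907506-120907685 (-), chr12:26456433-26456612 (-), chr8:71537453-71537632 (-) and chr19:34550534-34550713 (+). Ifit1 had 2 copies, 104 to 95 and 85 to 76 bases before the start. Ifit3 had 2 as well, 156 to 147 and 122 to 113 bases before it. Isg15 carried 3 overlapping copies in tandem from 78 to 57 bases before the start, and Oas1a had 2 overlapping copies from 20 to 5 bases before it. In Bst2 the 2 copies overlapped from 130 to 115 bases before the start, and Rsad2 had 1 copy, from 120 to 111. The Ifit2 windows held none, which says only that these letters are not in them. A match is a description of the sequence and was not tied to binding.

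**Figure D1:**
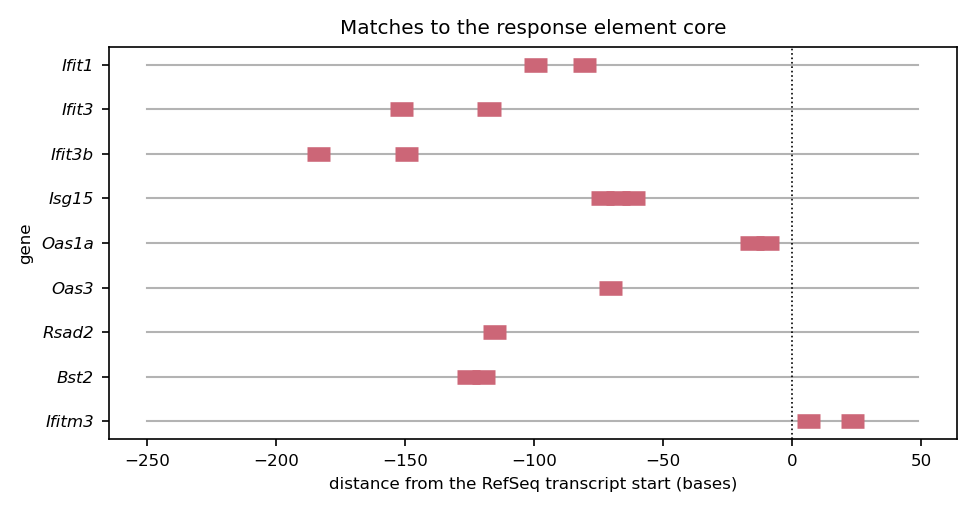
Position of each match to the response element core (bars) in the RefSeq window (grey line) of the 9 members that had one; the x axis is distance from the transcript start in bases and the dotted line is the start. In 8 members the matches lie before the start, between 188 and 5 bases from it, and in Ifitm3 both lie after it.

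With vehicle, loss of Atg5 went with higher levels of nearly every member. Of 33 tested, 31 were higher than control, 1 was lower and 1 (Mx1) missed the threshold (edgeR quasi-likelihood test, Benjamini-Hochberg adjusted p under 0.05 over all genes tested). Over all 13527 genes, 31.3% were called higher and 30.7% lower in this comparison. The median log2 fold change of the members was 2.31, against 0.01 over all genes tested. In the double knockout all 33 tested members were higher, where 25.3% of all genes were called higher and 27.2% lower, and the median was 3.15 against -0.01. The low-count filter keeps a gene that is high in any group. Oas1b, Oas2, Ifi44 and Sp100, near 0 in control and Rnf31 knockout libraries, passed it through the Atg5 and double knockouts. Their higher calls there are therefore not independent of the filter, and the counts and medians of both lines include them. In the Rnf31 knockout 2 members were higher, 6 lower and 25 not called, with 24.1% of all genes higher and 21.5% lower, and the median was -0.18 against 0.01. All rises and differences given with ± are log2 fold changes and their SEs from this fit. These 3 comparisons share the control vehicle libraries. Summed over all 34 members, the vehicle libraries held 348.4 to 363.1 CPM in the control and 320.6 to 331.0 in the Rnf31 knockout. The sum was 1625 to 1760.0 in the Atg5 knockout and 2312 to 2467 in the double knockout, and no 2 of the 4 ranges overlapped. With TNFα the sums of the control (341.1 to 361.4 CPM) and the Rnf31 knockout (330.9 to 352.9) did overlap. The 4 highest members made up 49.3% to 57.2% of the sum in the vehicle groups, so the sum mostly reflects few members.

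Marker transcripts moved with genotype as well. The summed level of the 7 melanocyte markers was 21240 to 21810 CPM in control, 19290 to 19610 in Rnf31 knockout, 17830 to 18250 in Atg5 knockout and 20210 to 20780 in double knockout vehicle libraries. Against control, 5 of the 7 were lower in the Atg5 knockout, and 3 were lower and 2 higher in the double knockout. Mlana, a melanosome protein, stood at 1203 ± 130.0 CPM (mean ± SD, n = 3) in control and 621 ± 17.6 in the Atg5 knockout (-0.95 ± 0.05, edgeR adjusted p = 6.94e-15). The 3 fibroblast markers summed to 5.97 to 7.38 CPM in control, 9.98 to 11.2 in Rnf31 knockout, 7.84 to 12.6 in Atg5 knockout and 6.38 to 7.70 in double knockout vehicle libraries. In the Atg5 knockout the collagen gene Col1a1 was higher (1.07 ± 0.19, edgeR adjusted p = 1.81e-05) and Col1a2 lower (-2.47 ± 0.47, edgeR adjusted p = 5.54e-05), while Pdgfra was not called. The part of these marker differences in the results on the members was not tested.

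**Figure D2:**
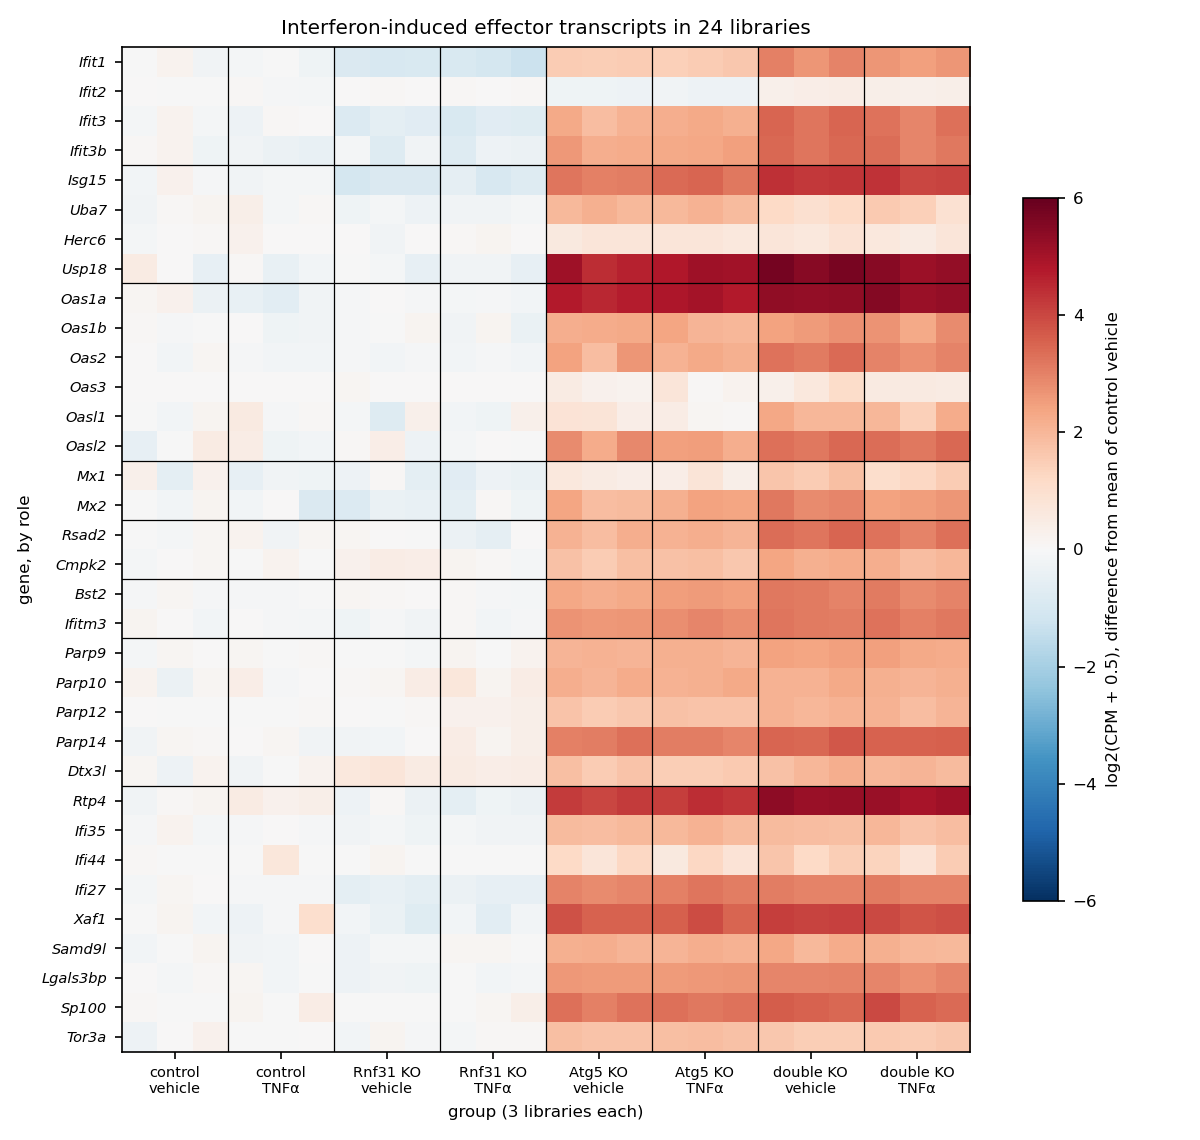
Level of each of the 34 members (rows, by role) in each of the 24 libraries (columns, 3 per group), as log2(CPM + 0.5) minus the mean of the 3 control vehicle libraries, red above and blue below. Control and Rnf31 knockout libraries range from -1.30 to 0.99, and the columns of the Atg5 and double knockouts are red in nearly all rows, up to 5.73, with Ifit2 the pale row.

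**Figure D3:**
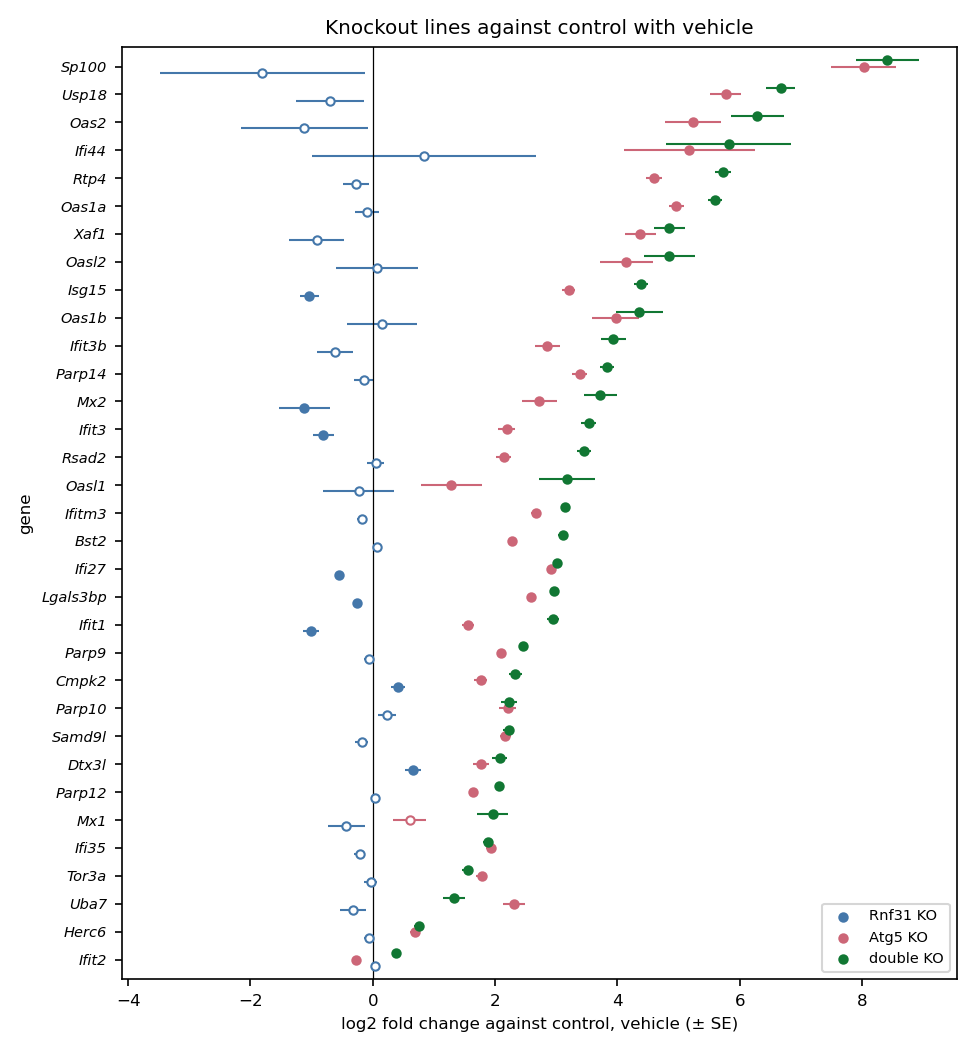
Log2 fold change against control with vehicle (x axis) ± SE for the 33 tested members (y axis, ordered by the double knockout), from the edgeR fit over 24 libraries of 3 per group; filled points passed an adjusted p of 0.05 and open points did not. Double knockout points lie at or right of 0.38, and Atg5 knockout points lie right of 0 for every member but Ifit2.

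The Ifit proteins bind RNA whose end lacks the host's own marks. Of 4 tested, 3 were higher and 1 was lower in the Atg5 knockout, and all 4 were higher in the double knockout. Ifit1 (chr19:34640871-34650009, + strand) stood at 8.32, 9.62 and 7.23 CPM in the control, 4.31, 4.06 and 4.23 in the Rnf31 knockout, 25.2, 24.5 and 24.7 in the Atg5 knockout and 71.2, 54.5 and 69.3 in the double knockout vehicle libraries. The 4 genotypes did not overlap, with the Rnf31 knockout lowest and the double knockout highest. Its log2 fold change ± SE against control was 1.56 ± 0.11 in the Atg5 knockout (edgeR adjusted p = 5.81e-13), 2.95 ± 0.10 in the double knockout (edgeR adjusted p = 6.67e-19) and -1.004 ± 0.13 in the Rnf31 knockout (edgeR adjusted p = 1.04e-06). With TNFα, Ifit1 read 7.55, 8.21 and 6.91 CPM in the control, 4.23, 3.77 and 3.10 in the Rnf31 knockout, 23.1, 24.6 and 26.7 in the Atg5 knockout and 55.1, 47.6 and 54.4 in the double knockout, in the same order and again without overlap. Ifit2 (chr19:34550694-34576419, + strand), lies in the same cluster and was the 1 member lower in the Atg5 knockout. It stood at 48.5, 46.9 and 47.6 CPM in the control, 48.3, 49.4 and 48.9 in the Rnf31 knockout, 39.2, 40.3 and 38.7 in the Atg5 knockout and 58.6, 62.3 and 65.3 in the double knockout vehicle libraries. The Atg5 knockout libraries were the lowest and the double knockout libraries the highest, while control and Rnf31 knockout libraries overlapped. Ifit2 fell in the Atg5 knockout (-0.27 ± 0.05, edgeR adjusted p = 5.72e-05) and rose in the double knockout (0.38 ± 0.05, edgeR adjusted p = 5.43e-07). With TNFα, Ifit2 read 49.7, 45.5 and 44.4 CPM in the control, 50.0, 47.7 and 49.5 in the Rnf31 knockout, 41.4, 38.2 and 38.5 in the Atg5 knockout and 61.3, 58.2 and 61.9 in the double knockout, in the same order. The 2 remaining members, Ifit3 and Ifit3b, rose by 2.19 and 2.85 log2 units in the Atg5 knockout and by 3.53 and 3.93 in the double knockout. They share sequence: 41.1% of the 75-base stretches of Ifit3 also occur in Ifit3b, so how reads were divided between them is uncertain. The 4 members lie together on chromosome 19, and their log2 fold changes in the Atg5 knockout ranged from -0.27 to 2.85.

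Isg15 is a ubiquitin-like protein that Uba7 activates, Herc6 attaches to targets and Usp18 removes. All 4 were higher in both the Atg5 and the double knockout, by very different amounts. Isg15 (chr4:156199424-156200818, - strand) stood at 5.22, 7.14 and 5.74 CPM in the control, 2.62, 3.07 and 3.11 in the Rnf31 knockout, 59.8, 52.5 and 54.8 in the Atg5 knockout and 135, 120.4 and 125 in the double knockout vehicle libraries. No genotypes overlapped, and the order was again Rnf31 knockout, control, Atg5 knockout and double knockout. The log2 fold change against control was 3.20 ± 0.11 in the Atg5 knockout (edgeR adjusted p = 1.93e-19), 4.39 ± 0.11 in the double knockout (edgeR adjusted p = 1.81e-22) and -1.04 ± 0.16 in the Rnf31 knockout (edgeR adjusted p = 6.69e-06). With TNFα, Isg15 read 5.10, 5.44 and 5.41 CPM in the control, 4.02, 2.84 and 3.25 in the Rnf31 knockout, 66.8, 72.0 and 58.2 in the Atg5 knockout and 129.6, 105 and 106 in the double knockout, without overlap between genotypes. Uba7 (chr9:107975505-107984060, + strand), the activating enzyme, had another order. It stood at 1.31, 1.68 and 1.88 CPM in the control, 1.25, 1.44 and 1.21 in the Rnf31 knockout, 7.71, 8.81 and 7.63 in the Atg5 knockout and 4.27, 3.56 and 4.40 in the double knockout vehicle libraries. The double knockout libraries lay between those of the control and of the Atg5 knockout and overlapped neither. Uba7 rose by 2.31 ± 0.18 log2 units in the Atg5 knockout (edgeR adjusted p = 5.97e-12) and by 1.33 ± 0.18 in the double knockout (edgeR adjusted p = 7.71e-07). With TNFα, Uba7 read 2.21, 1.43 and 1.72 CPM in the control, 1.35, 1.30 and 1.45 in the Rnf31 knockout, 7.74, 8.49 and 7.26 in the Atg5 knockout and 5.75, 5.11 and 3.43 in the double knockout, and the Atg5 knockout libraries were again the highest. Usp18, the protease that removes Isg15 and also dampens the interferon receptor, went from 0.708, 0.381 and 0.115 CPM in control to 29.0, 18.4 and 20.5 in the Atg5 knockout (5.77 ± 0.25) and 45.6, 37.3 and 44.1 in the double knockout (6.67 ± 0.24). Herc6 rose least of the 4, by 0.69 ± 0.08 and 0.76 ± 0.08, and shares 22.4% of its 75-base stretches with the overlapping transcript Gm45193.

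The oligoadenylate synthetases make a short messenger that switches on an RNA-degrading enzyme when they meet double-stranded RNA. All 5 tested members were higher in the Atg5 and in the double knockout. Oas1a (chr5:120896256-120907521, - strand) stood at 2.02, 2.25 and 1.34 CPM in the control, 1.73, 1.90 and 1.71 in the Rnf31 knockout, 62.5, 53.9 and 61.7 in the Atg5 knockout and 93.0, 91.1 and 91.5 in the double knockout vehicle libraries. Control and Rnf31 knockout libraries overlapped, and both Atg5-deficient lines lay far above. It rose by 4.96 ± 0.12 log2 units in the Atg5 knockout (edgeR adjusted p = 6.32e-23) and by 5.59 ± 0.12 in the double knockout (edgeR adjusted p = 6.48e-24). With TNFα, Oas1a read 1.21, 1.03 and 1.53 CPM in the control, 1.67, 1.70 and 1.61 in the Rnf31 knockout, 66.8, 74.5 and 63.0 in the Atg5 knockout and 105, 84.9 and 89.3 in the double knockout, with no overlap between genotypes. Of the 75-base stretches of Oas1a, 47.6% also occur in Oas1g, so its counts depend on how shared reads were divided. Oas1b (chr5:120812635-120824163, + strand), annotated as a polymorphic pseudogene, stood at 0.202, 0.127 and 0.153 CPM in the control, 0.121, 0.152 and 0.249 in the Rnf31 knockout, 2.54, 2.55 and 2.66 in the Atg5 knockout and 2.97, 3.32 and 3.87 in the double knockout vehicle libraries. It was low in control and Rnf31 knockout libraries, which overlapped, and high in the other 2 lines, rising by 3.97 ± 0.39 and 4.36 ± 0.39 (edgeR adjusted p = 1.05e-09 and 2.64e-10). With TNFα, Oas1b read 0.161, 0.0446 and 0.0637 CPM in the control, 0.0694, 0.247 and 0 in the Rnf31 knockout, 2.90, 2.20 and 2.12 in the Atg5 knockout and 3.75, 2.66 and 4.20 in the double knockout, and the last 2 lines overlapped. Oas2 had 5 counts in the control vehicle libraries together, 206 in the Atg5 knockout and 405 in the double knockout. Scaled for depth, that is 40.5-fold (95% counting interval 17.1 to 126.0) and 84.3-fold (35.9 to 261.2), where the interval covers counting error only. Oas3, the untested member, had 0 counts in control vehicle libraries, 12 in the Atg5 knockout and 27 in the double knockout. Against a floor of 3 counts over the control group these are at least 3.93-fold and 9.37-fold higher. Oasl2, a relative with a ubiquitin-like tail, rose by 4.15 ± 0.43 log2 units and 4.85 ± 0.42. Oasl1, a relative known to restrain Irf7, rose by 1.28 ± 0.50 log2 units in the Atg5 knockout, a call near the threshold (edgeR adjusted p = 0.0279; 0.0626 and 0.0966 without control vehicle replicate 1 or 2, 0.0831 and 0.0698 without Atg5 knockout vehicle replicate 1 or 2). In the double knockout it rose by 3.17 ± 0.46 log2 units (edgeR adjusted p = 1.57e-06).

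Mx1 and Mx2 are large GTPases that act on viral nucleoprotein complexes. Mx1 (chr16:97447035-97462907, - strand) stood at 1.69, 0.667 and 1.61 CPM in the control, 0.927, 1.33 and 0.684 in the Rnf31 knockout, 2.20, 1.94 and 1.82 in the Atg5 knockout and 5.08, 4.59 and 5.66 in the double knockout vehicle libraries. The Atg5 knockout libraries lay just above all control libraries and the double knockout libraries above both. Against control the difference was 0.61 ± 0.27 in the Atg5 knockout, which missed the threshold (edgeR adjusted p = 0.0527; 0.0201 and 0.0337 without control vehicle replicate 1 or 3, 0.042 with a mean of at least 1 CPM and 0.0475 with an offset for transcript length), and 1.96 ± 0.26 in the double knockout (edgeR adjusted p = 3.02e-07). With TNFα, Mx1 read 0.763, 1.03 and 0.955 CPM in the control, 0.590, 0.926 and 0.841 in the Rnf31 knockout, 1.84, 2.49 and 1.73 in the Atg5 knockout and 3.10, 3.62 and 4.51 in the double knockout. Mx2 (chr16:97535308-97560900, + strand), annotated as a polymorphic pseudogene, stood at 0.640, 0.540 and 0.804 CPM in the control, 0.161, 0.379 and 0.342 in the Rnf31 knockout, 5.54, 3.69 and 3.79 in the Atg5 knockout and 9.98, 7.63 and 8.45 in the double knockout vehicle libraries. Its genotypes did not overlap and were ordered as for Ifit1 and Isg15. Mx2 rose by 2.72 ± 0.28 log2 units in the Atg5 knockout (edgeR adjusted p = 2.22e-09) and by 3.72 ± 0.27 in the double knockout (edgeR adjusted p = 5.25e-12). With TNFα, Mx2 read 0.522, 0.669 and 0.127 CPM in the control, 0.278, 0.710 and 0.459 in the Rnf31 knockout, 4.56, 5.59 and 5.45 in the Atg5 knockout and 5.75, 5.98 and 6.71 in the double knockout, and control and Rnf31 knockout libraries overlapped.

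Rsad2 (viperin) turns a nucleotide into a chain terminator of RNA synthesis, and Cmpk2, the kinase encoded next to it on the other strand, can supply that nucleotide. Their gene bodies are 12751 bases apart on chromosome 12. Rsad2 (chr12:26442746-26456452, - strand) stood at 6.17, 5.68 and 6.78 CPM in the control, 6.81, 6.37 and 6.03 in the Rnf31 knockout, 27.9, 24.0 and 30.1 in the Atg5 knockout and 67.7, 62.2 and 73.8 in the double knockout vehicle libraries. It rose by 2.14 ± 0.12 log2 units in the Atg5 knockout (edgeR adjusted p = 1.18e-14) and by 3.46 ± 0.12 in the double knockout (edgeR adjusted p = 3.82e-19), with overlap only between control and Rnf31 knockout. With TNFα, Rsad2 read 7.19, 5.22 and 6.65 CPM in the control, 4.75, 4.14 and 6.31 in the Rnf31 knockout, 27.7, 29.4 and 26.9 in the Atg5 knockout and 64.4, 52.1 and 65.2 in the double knockout. Cmpk2 (chr12:26469204-26479837, + strand) stood at 5.93, 6.51 and 6.97 CPM in the control, 7.82, 9.06 and 8.80 in the Rnf31 knockout, 22.8, 19.5 and 23.5 in the Atg5 knockout and 35.6, 29.7 and 32.2 in the double knockout vehicle libraries. Its 4 genotypes did not overlap, and here the Rnf31 knockout lay above the control. Cmpk2 rose by 1.76 ± 0.11 log2 units in the Atg5 knockout (edgeR adjusted p = 7.33e-14) and by 2.33 ± 0.11 in the double knockout (edgeR adjusted p = 3.03e-16). With TNFα, Cmpk2 read 6.27, 7.49 and 6.33 CPM in the control, 7.25, 6.76 and 5.96 in the Rnf31 knockout, 23.0, 23.4 and 20.6 in the Atg5 knockout and 31.3, 24.5 and 27.5 in the double knockout, and the Rnf31 knockout and control libraries overlapped.

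Bst2 (tetherin) holds budding virus at the cell surface, and Ifitm3 blocks fusion of virus with endosomes. They were among the 3 most abundant members per length in all 8 groups, with Ifi27. Bst2 (chr8:71534255-71537456, - strand) stood at 35.4, 40.8 and 35.0 CPM in the control, 40.2, 39.1 and 37.7 in the Rnf31 knockout, 188, 169 and 184 in the Atg5 knockout and 336, 324 and 296 in the double knockout vehicle libraries. Per kilobase of the longest annotated transcript that was 46.8 ± 4.08 CPM per kb (SD, n = 3) in control, 228 ± 12.8 in the Atg5 knockout and 403 ± 26.0 in the double knockout. Bst2 rose by 2.28 ± 0.07 log2 units in the Atg5 knockout (edgeR adjusted p = 3.41e-20) and by 3.10 ± 0.07 in the double knockout (edgeR adjusted p = 6.61e-23). With TNFα, Bst2 read 34.7, 35.5 and 36.1 CPM in the control, 39.2, 35.6 and 34.6 in the Rnf31 knockout, 212, 217 and 205 in the Atg5 knockout and 329, 265 and 295 in the double knockout. Ifitm3 (chr7:141009586-141010770, - strand) stood at 24.5, 22.4 and 19.6 CPM in the control, 18.5, 21.1 and 19.2 in the Rnf31 knockout, 145, 137 and 142 in the Atg5 knockout and 207, 194 and 190.3 in the double knockout vehicle libraries. Control and Rnf31 knockout overlapped for both genes, and the other 2 lines lay apart from them and from each other. The rises of Ifitm3 were 2.67 ± 0.07 log2 units (edgeR adjusted p = 3.34e-21) and 3.15 ± 0.08 (edgeR adjusted p = 8.89e-23). With TNFα, Ifitm3 read 22.7, 21.2 and 20.6 CPM in the control, 22.9, 19.5 and 21.0 in the Rnf31 knockout, 156, 172 and 157 in the Atg5 knockout and 216, 183 and 203 in the double knockout. In the per-length order, Ifi27 stood at 48.7 ± 4.14 CPM per kb in control vehicle, within an SD of Bst2, at 368 ± 14.3 in the Atg5 knockout, above Bst2, and at 394 ± 16.2 in the double knockout, within an SD of Bst2.

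Parp9, Parp10, Parp12 and Parp14 are ADP-ribosyltransferase family proteins, and Dtx3l is the ubiquitin ligase that works as a pair with Parp9. All 5 were higher in the Atg5 and the double knockout. Parp9 (chr16:35938470-35972605, + strand) stood at 9.57, 11.1 and 10.4 CPM in the control, 10.2, 10.2 and 9.45 in the Rnf31 knockout, 44.5, 45.4 and 43.9 in the Atg5 knockout and 56.9, 55.8 and 59.5 in the double knockout vehicle libraries. It rose by 2.10 ± 0.07 log2 units (edgeR adjusted p = 2.75e-19) and 2.46 ± 0.07 (edgeR adjusted p = 1.09e-20) in the Atg5 and the double knockout. With TNFα, Parp9 read 11.2, 10.2 and 10.9 CPM in the control, 11.7, 10.1 and 12.1 in the Rnf31 knockout, 47.5, 46.6 and 43.5 in the Atg5 knockout and 58.8, 52.2 and 50.9 in the double knockout. Parp10 (chr15:76231174-76243441, - strand) stood at 7.82, 5.08 and 7.23 CPM in the control, 7.01, 7.28 and 9.20 in the Rnf31 knockout, 31.4, 28.4 and 32.6 in the Atg5 knockout and 30.1, 30.1 and 33.9 in the double knockout vehicle libraries. Atg5 and double knockout libraries overlapped for Parp10, as did control and Rnf31 knockout libraries, so the 4 lines formed 2 levels. Its rises were 2.20 ± 0.13 log2 units (edgeR adjusted p = 5.26e-14) and 2.23 ± 0.13 (edgeR adjusted p = 1.01e-13). With TNFα, Parp10 read 8.88, 6.20 and 6.81 CPM in the control, 10.8, 7.50 and 9.10 in the Rnf31 knockout, 29.8, 30.5 and 33.9 in the Atg5 knockout and 30.9, 29.1 and 31.0 in the double knockout. Dtx3l (chr16:35926511-35939151, - strand), which overlaps Parp9 by 682 bases at their 5′ ends on opposite strands, stood at 5.96, 4.41 and 6.39 CPM in the control, 8.99, 9.37 and 7.96 in the Rnf31 knockout, 20.4, 17.0 and 19.4 in the Atg5 knockout and 19.7, 23.6 and 26.9 in the double knockout vehicle libraries. For Dtx3l the Rnf31 knockout lay above the control and below both Atg5-deficient lines, which overlapped each other. Dtx3l rose by 1.77 ± 0.13 log2 units (edgeR adjusted p = 1.44e-12) and 2.07 ± 0.13 (edgeR adjusted p = 1.06e-13). With TNFα, Dtx3l read 4.74, 5.40 and 6.49 CPM in the control, 7.94, 7.38 and 7.61 in the Rnf31 knockout, 16.5, 16.2 and 17.2 in the Atg5 knockout and 23.3, 24.6 and 22.2 in the double knockout. Parp12 and Parp14 rose by 1.64 and 3.38 log2 units in the Atg5 knockout and by 2.06 and 3.83 in the double knockout.

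The 9 other effectors have varied roles, and all were higher in both Atg5-deficient lines. Rtp4 (chr16:23520291-23614222, + strand), a chaperone of receptors that also restricts RNA viruses, stood at 0.943, 1.27 and 1.38 CPM in the control, 0.847, 1.29 and 0.839 in the Rnf31 knockout, 29.9, 26.8 and 29.9 in the Atg5 knockout and 68.3, 59.7 and 62.0 in the double knockout vehicle libraries. It rose by 4.59 ± 0.13 log2 units (edgeR adjusted p = 3.34e-21) and 5.73 ± 0.12 (edgeR adjusted p = 1.33e-23) in the Atg5 and the double knockout. With TNFα, Rtp4 read 1.85, 1.52 and 1.62 CPM in the control, 0.624, 0.895 and 0.841 in the Rnf31 knockout, 29.9, 36.0 and 32.0 in the Atg5 knockout and 60.6, 52.1 and 56.4 in the double knockout. Ifi35 (chr11:101448407-101458698, + strand), the partner of Nmi, stood at 9.13, 11.3 and 8.96 CPM in the control, 8.43, 8.84 and 8.18 in the Rnf31 knockout, 37.4, 36.1 and 38.7 in the Atg5 knockout and 37.6, 36.5 and 35.2 in the double knockout vehicle libraries. The Rnf31 knockout libraries lay below the control libraries, a difference that was not called, and the other 2 lines overlapped. Its rises were 1.93 ± 0.08 log2 units (edgeR adjusted p = 1.57e-17) and 1.89 ± 0.08 (edgeR adjusted p = 4.88e-17). With TNFα, Ifi35 read 9.32, 9.90 and 9.26 CPM in the control, 8.81, 8.24 and 8.34 in the Rnf31 knockout, 39.0, 43.1 and 37.7 in the Atg5 knockout and 39.8, 33.4 and 36.3 in the double knockout. Tor3a (chr1:156653617-156674356, - strand), an ATPase of the endoplasmic reticulum, stood at 8.76, 11.1 and 12.9 CPM in the control, 9.43, 12.2 and 10.2 in the Rnf31 knockout, 39.0, 36.7 and 36.5 in the Atg5 knockout and 33.9, 31.0 and 31.0 in the double knockout vehicle libraries, and the double knockout lay below the Atg5 knockout. It rose by 1.78 ± 0.09 log2 units (edgeR adjusted p = 1.83e-15) and 1.55 ± 0.09 (edgeR adjusted p = 1.01e-13). With TNFα, Tor3a read 10.8, 10.8 and 10.9 CPM in the control, 10.1, 11.6 and 11.4 in the Rnf31 knockout, 39.5, 39.8 and 38.1 in the Atg5 knockout and 33.1, 32.2 and 34.1 in the double knockout. Sp100, a nuclear body protein, had 1 count in the control vehicle libraries together, 372 in the Atg5 knockout and 458 in the double knockout, a ratio of 365.4 (95% counting interval 65.2 to 14470) and 476.9 (85.2 to 18880). Ifi44 had 1, 51 and 75 counts, a ratio of 50.1 (8.60 to 2017) and 78.1 (13.6 to 3126). These ratios rest on 1 control count each and were smaller with TNFα. There Sp100 had 8 control counts and ratios of 42.2 (21.2 to 98.6) and 59.6 (30.0 to 139). Ifi44 had 7, all in control TNFα replicate 2, and ratios of 5.44 (2.40 to 14.4) and 8.01 (3.61 to 20.9). The remaining 4 had log2 fold changes in the Atg5 and the double knockout of 2.92 and 3.02 for the mitochondrial protein Ifi27, 4.38 and 4.85 for Xaf1, a binder of the caspase inhibitor Xiap, 2.17 and 2.22 for Samd9l, and 2.59 and 2.96 for the secreted glycoprotein Lgals3bp.

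Setting the double knockout against the Atg5 knockout asks what losing Rnf31 adds where Atg5 is already lost. With vehicle, 22 of 33 members were higher in the double knockout, 2 lower and 9 not called, where 18.2% of all genes were called higher and 19.8% lower. The median of the members was 0.57, against -0.01 over all genes tested. With TNFα, 20 were higher, 2 lower and 11 not called, where 18.8% of all genes were higher and 19.4% lower, and the median was 0.47 against -0.01. With vehicle the 3 double knockout libraries lay above all 3 Atg5 knockout libraries for 24 of the 33 tested members and below them for 2, where the same held for 22.6% and 24.8% of all genes tested. The Ifit family, the Mx pair, Rsad2 and Cmpk2, and Bst2 and Ifitm3 all rose with vehicle. Ifit1 had a log2 fold change of 1.39 ± 0.09 (edgeR adjusted p = 2.13e-12), Ifit3 1.34 ± 0.11, Rsad2 1.32 ± 0.10 (edgeR adjusted p = 3.58e-11), Isg15 1.19 ± 0.09 (edgeR adjusted p = 1.07e-11) and Rtp4 1.13 ± 0.08 (edgeR adjusted p = 1.2e-11). With TNFα the same differences were 1.08, 0.98, 1.11, 0.79 and 0.79. The largest fitted value was that of Oasl1, 1.89 ± 0.41 with vehicle (edgeR adjusted p = 0.00051) and 2.50 ± 0.45 with TNFα (edgeR adjusted p = 7.56e-05).

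The difference between the double and the Atg5 knockout varied in size among the members. Of the 8 tested members with a response element match in the window, all 8 were higher in the double than in the Atg5 knockout with vehicle, with log2 fold changes of 0.48 to 1.39 and a median of 1.13. Of 14 with a window and no match, 7 were higher and 1 was lower, with a median of 0.40, and of 11 without a window 7 were higher and 1 was lower, with a median of 0.45. Against control, the Atg5 knockout had medians of 2.47, 2.05 and 2.92 in these 3 sets. These are descriptions of few genes chosen by symbol, with no test. Not called with vehicle were Herc6 (0.07 ± 0.08), Parp10 (0.02 ± 0.12), Ifi35 (-0.04 ± 0.07), Samd9l (0.06 ± 0.08), Ifi27 (0.10 ± 0.06), Oasl2 (0.70 ± 0.28), Oas1b (0.39 ± 0.27), Ifi44 (0.64 ± 0.56) and Sp100 (0.39 ± 0.23). Oasl2 (edgeR adjusted p = 0.0528) passed in 6 of 13 alternatives, namely with no low-count filter (0.0438), with a mean of at least 1 CPM (0.0446), with the offset for transcript length (0.0391), with DESeq2 (0.0108), in a fit of only the groups compared (0.00653) and without Atg5 knockout vehicle replicate 3 (0.0463). Ifi27 passed with the offset for transcript length (0.00843). With TNFα, Usp18 (0.33 ± 0.15) was not called but passed with that offset (0.0224) and in a fit of only the groups compared (0.0065), as did Oas1b (0.56 ± 0.28) and Sp100 (0.47 ± 0.23) in the fit of only those groups (0.0481 and 0.0355).

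Uba7 and Tor3a went the other way. Uba7, the enzyme that activates Isg15, was lower in the double than in the Atg5 knockout, with a log2 fold change of -0.98 ± 0.16 with vehicle (edgeR adjusted p = 1.54e-05) and of -0.70 ± 0.16 with TNFα (edgeR adjusted p = 0.000929), while Isg15 itself was higher. Tor3a had a log2 fold change of -0.23 ± 0.08 with vehicle (edgeR adjusted p = 0.036), a call that was lost without any 1 of 5 of the 6 libraries (adjusted p 0.0698 to 0.143), the exception being double knockout replicate 1, and with no low-count filter (0.0609). With TNFα Tor3a gave -0.24 ± 0.09 (edgeR adjusted p = 0.028), lost without any 1 of 5 of the 6 libraries (0.0533 to 0.0905), the exception being Atg5 knockout replicate 3. Some calls of higher members were also lost without single libraries. Dtx3l with vehicle (0.30 ± 0.11, edgeR adjusted p = 0.033) stood at an adjusted p of 0.136 without Atg5 knockout replicate 2, and 0.0642 and 0.196 without double knockout replicates 2 and 3. Xaf1 with vehicle (0.47 ± 0.17, edgeR adjusted p = 0.0322) stood at 0.0917 and 0.0856 without Atg5 knockout replicates 2 and 3, at 0.0846 and 0.0584 without double knockout replicates 1 and 3, and at 0.165 with DESeq2. With TNFα, Cmpk2 (0.31 ± 0.10, edgeR adjusted p = 0.0128) was lost without Atg5 knockout replicate 3 (0.0709) or double knockout replicate 1 (0.117), and Parp9 (0.24 ± 0.06, edgeR adjusted p = 0.00471) without double knockout replicate 1 (0.0576).

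**Figure D4:**
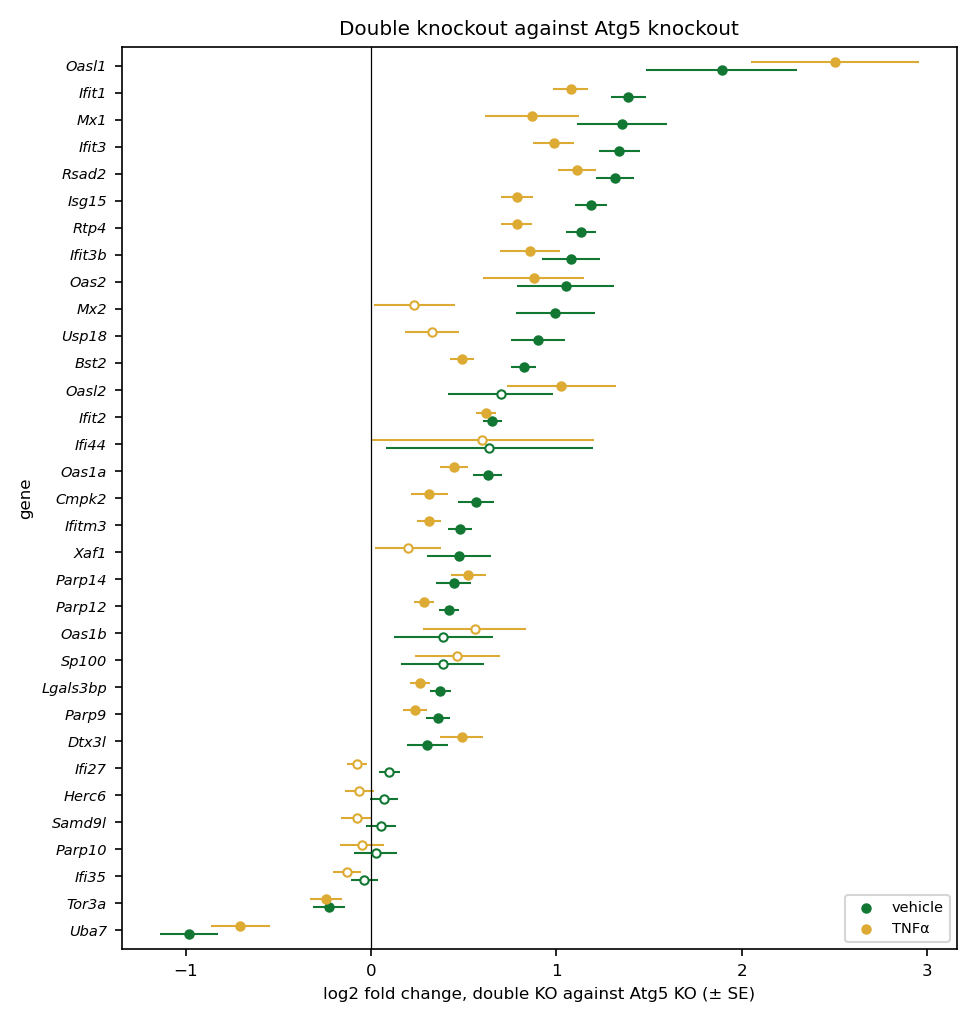
Log2 fold change of the double against the Atg5 knockout (x axis) ± SE for the 33 tested members (y axis, ordered by the vehicle value), with vehicle in green and TNFα in yellow, 3 libraries per group; filled points passed an adjusted p of 0.05. Most points lie right of 0, and Uba7 lies furthest left, at -0.98 with vehicle and -0.70 with TNFα.

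Loss of Rnf31 alone gave 8 calls among the 33 members, 2 higher and 6 lower. Over all genes 24.1% were called higher and 21.5% lower, so neither direction was more frequent among the members. Lower than control with vehicle were Isg15 (-1.04 ± 0.16), Ifit1 (-1.004 ± 0.13), Ifit3 (-0.81 ± 0.17, edgeR adjusted p = 0.000324), Mx2 (-1.12 ± 0.42), Ifi27 (-0.55 ± 0.06, edgeR adjusted p = 2.82e-07) and Lgals3bp (-0.26 ± 0.06, edgeR adjusted p = 0.00101). The call for Mx2 (edgeR adjusted p = 0.0302) was lost without control vehicle replicate 3 (0.0998), without Rnf31 knockout vehicle replicate 1 (0.122) or 3 (0.0507), and in a fit of only the groups compared (0.0574). Higher than control were Cmpk2 (0.41 ± 0.12, edgeR adjusted p = 0.00519) and Dtx3l (0.65 ± 0.13, edgeR adjusted p = 0.000217). Rsad2, which lies next to Cmpk2, differed by 0.05 ± 0.14, and Parp9, which overlaps Dtx3l, by -0.06 ± 0.08, neither of them called. Ifi27 libraries read 43.4, 51.5 and 47.8 CPM in the control and 31.6, 34.4 and 31.7 in the Rnf31 knockout. Bst2, at 0.07 ± 0.07, was not called, but with an offset for each library's trend with transcript length the difference was 0.40 (edgeR adjusted p = 1.31e-05). With the same offset Samd9l became lower, at -0.32 (edgeR adjusted p = 0.0202), from -0.18 ± 0.10. The trend differed between these lines. For the shortest genes it was 0.0829, 0.392 and 0.116 log2 units in control and -0.0726, -0.107 and -0.152 in Rnf31 knockout vehicle libraries. Isg15 (0.756 kb) and Ifi27 (0.977 kb) are about as short as Bst2 (0.792 kb). Their falls above, and the departures given below, are without the offset, so their size may depend on this trend. Some members that were not called passed when 1 library was left out: Ifi35 (-0.21 ± 0.09) without control vehicle replicate 1 or 3 or Rnf31 knockout vehicle replicate 2 (edgeR adjusted p = 0.0303, 0.0265 and 0.0461) and also with a mean of at least 1 CPM (0.0331), Ifitm3 (-0.18 ± 0.08) without control vehicle replicate 3 or Rnf31 knockout vehicle replicate 2 (0.0145 and 0.0285) and also with a mean of at least 1 CPM (0.0435). Over the 13 alternatives the log2 fold change of Ifi35 ranged from -0.27 to -0.00774. That of Ifitm3 ranged from -0.26 to 0.18, so its sign was not kept in all of them. Ifit3b (-0.61 ± 0.29) passed without control vehicle replicate 3 or Rnf31 knockout vehicle replicate 1 (0.0418 and 0.0471), and Mx1 (-0.43 ± 0.30) without control vehicle replicate 2 (0.0303).

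Whether Rnf31 loss had the same effect with and without Atg5 was tested as the departure of the double knockout from the sum of the single ones. With vehicle, the departure, in log2 units, was positive for 20 of 33 members and negative for 1, and 12 were not called, where 18.9% of all genes departed upward and 21.8% downward. The median of the members was 0.65, against -0.02 over all genes. Among the largest departures were those of Ifit1 (2.39 ± 0.16, edgeR adjusted p = 4.76e-12), Isg15 (2.22 ± 0.18, edgeR adjusted p = 1.78e-10) and Ifit3 (2.15 ± 0.20, edgeR adjusted p = 4.13e-09). For Ifit1 the Rnf31 effect was -1.004 where Atg5 was intact and 1.39 where it was lost, and for Isg15 it was -1.04 and 1.19. Rsad2 departed by 1.27 ± 0.17, Mx1 by 1.79 ± 0.38 and Bst2 by 0.75 ± 0.10. By contrast Cmpk2 (0.16 ± 0.15), Parp10 (-0.21 ± 0.19) and Dtx3l (-0.35 ± 0.17) were not called. Uba7 was the 1 member below the sum, at -0.67 ± 0.27 (edgeR adjusted p = 0.0465), and the call was lost in 16 of 19 alternatives, with an adjusted p of 0.0317 to 0.135 over all of them. Those that kept it were RLE size factors, a fit of only the groups compared and the fit without control vehicle replicate 3. Without control vehicle replicate 2 the calls of Oas1a (0.72 ± 0.21; 0.0648), Parp14 (0.59 ± 0.18; 0.0566), Xaf1 (1.39 ± 0.48; 0.0813) and Usp18 (1.60 ± 0.57; 0.0501) were lost, the value after each semicolon being the edgeR adjusted p without that library. Oasl1 (2.12 ± 0.72) was lost without control vehicle replicate 3 (0.0621), Xaf1 without Rnf31 knockout replicate 3 (0.109), and Usp18 without control vehicle replicate 1 (0.29), without Rnf31 knockout replicate 3 (0.116) and in a fit of only the groups compared (0.0516). Not called but passing without 1 library were Oas2 (2.17 ± 1.10; 0.0387 without control vehicle replicate 2), Samd9l (0.24 ± 0.13; 0.0222 without double knockout vehicle replicate 2 and 0.0281 with the length offset) and Tor3a (-0.19 ± 0.13; 0.0477 without control vehicle replicate 3).

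At this dose and time of TNFα, 1 member passed the test in 1 of the 4 lines. In control cells 0 of 33 were higher and 0 lower by edgeR, with 4 at an unadjusted p under 0.05, where 0.0961% of all genes were called higher and 0% lower. The median of the members was -0.03, against -0.01 over all genes. DESeq2 gave an adjusted p to 16 members and called 1 lower, Oas1a (-0.57 ± 0.21 by edgeR, adjusted p = 0.131; 0.0472 by DESeq2), with 5 members at an unadjusted p under 0.05. In the Rnf31 knockout 1 member was higher and 0 lower by edgeR (0.902% and 0.266% of all genes), with 8 at an unadjusted p under 0.05 by edgeR and 7 by DESeq2. That member was Parp12 (0.26 ± 0.06, edgeR adjusted p = 0.0306). Parp12 read 25.7, 25.4 and 27.1 CPM with vehicle and 30.9, 30.6 and 32.3 with TNFα, and its call was lost without any 1 of 5 of the 6 libraries (0.053 to 0.16), the exception being Rnf31 knockout vehicle replicate 3. In the Atg5 knockout 0 were higher and 0 lower by edgeR (0% and 0% of all genes), with 6 at an unadjusted p under 0.05, and DESeq2 called 0 of the 11 to which it gave an adjusted p, with 6 at an unadjusted p under 0.05. In the double knockout 0 were higher and 0 lower by edgeR (0.0665% and 0.0665% of all genes), with 6 at an unadjusted p under 0.05, and DESeq2 called 0, with 4. The medians were 0.00536, 0.0327 and -0.105 in the Rnf31, Atg5 and double knockouts, against -0.00586, -0.00247 and -0.00238 over all genes.

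**Figure D5:**
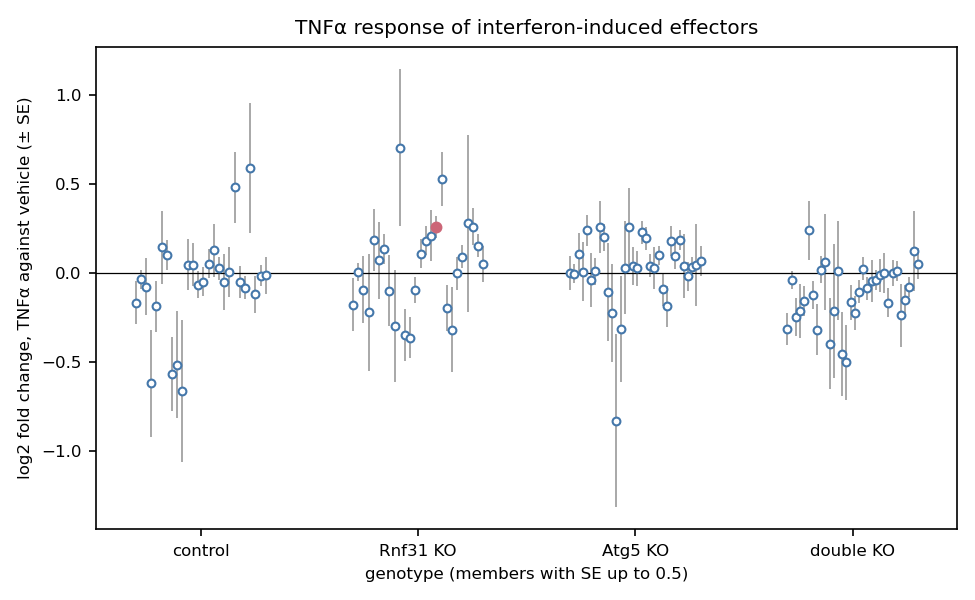
Log2 fold change of TNFα against vehicle (y axis) ± SE by genotype (x axis) for members whose SE was at most 0.5, which is 26, 26, 32 and 32 of the 33 tested in the order drawn; within a genotype the points follow the order of roles. Points lie between -0.83 and 0.70, and the filled point, Parp12 in the Rnf31 knockout, is the only one that passed an adjusted p of 0.05.

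The response to TNFα differed from that of the control for few members. For the Rnf31 knockout 0 were higher and 0 lower by edgeR (0.00739% and 0% of all genes), with 6 at an unadjusted p under 0.05, and DESeq2 called 0, with 8. For the Atg5 knockout 2 responses were higher and 0 lower, where 4.94% of all genes were higher and 6.42% lower, with 6 members at an unadjusted p under 0.05. They were Oas1a (difference 0.77 ± 0.22, edgeR adjusted p = 0.0314) and Ifi27 (0.27 ± 0.08, edgeR adjusted p = 0.0429). Neither passed the test of the response within the Atg5 knockout (0.20 ± 0.08 and 0.18 ± 0.06, edgeR adjusted p = 0.283 and 0.22). Ifi27 read 374, 345 and 359 CPM with vehicle and 384, 438 and 402 with TNFα in that line, and 44.6, 45.4 and 45.0 with TNFα in the control. Both calls were lost without control vehicle replicate 2 (0.18 and 0.168), the library that stood apart, with the offset for transcript length (0.0885 and 0.837) and in a fit of only the groups compared (0.0643 and 0.0824). That of Ifi27 was also lost with no low-count filter (0.0548). Single other libraries ended them too: the call of Oas1a without control TNFα replicate 1 or 2 (0.0838 and 0.0785) and without Atg5 knockout replicate 2 of vehicle or TNFα (0.0523 and 0.0726). That of Ifi27 was lost without control vehicle replicate 3 (0.0582), any 1 control TNFα library (0.0643 to 0.0966), Atg5 knockout vehicle replicate 2 or 3 (0.102 and 0.0887) and Atg5 knockout TNFα replicate 2 or 3 (0.136 and 0.0538). Bst2 (0.29 ± 0.10), Isg15 (0.43 ± 0.17) and Ifitm3 (0.24 ± 0.10) were not called but passed without some single libraries: Bst2 without control vehicle replicate 1 or 3 or Atg5 knockout vehicle replicate 1 (0.0255, 0.0402 and 0.0446), Isg15 without control vehicle replicate 1 or Atg5 knockout TNFα replicate 3 (0.0305 and 0.0489), and Ifitm3 without control vehicle replicate 3 (0.0437). DESeq2 called 4 higher, which were Oas1a, Ifi27, Bst2 (0.0292) and Isg15 (0.0406), with 8 at an unadjusted p under 0.05. For the double knockout 0 were higher and 0 lower by edgeR (0.384% and 0.769% of all genes), with 3 at an unadjusted p under 0.05. DESeq2 called 1 lower, Rtp4 (-0.65 ± 0.21 by edgeR, adjusted p = 0.0957; 0.0443 by DESeq2), with 4 at an unadjusted p under 0.05. These differences of responses share the control libraries.

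Genes placed before the effectors in the pathway were measured in the same libraries, all taken at 24 h. Whether their changes came before or after those of the effectors was therefore not tested. Of 12 interferon ligands listed, Ifnz had a row, and the other 11 are not analysed here. Ifnz had 0 to 9 counts per library, too few for the test. Of 17 receptor and signalling genes tested, 10 were higher and 1 was lower in the Atg5 knockout than in control with vehicle, and 8 were higher and 2 lower in the double knockout. Over all genes 31.3% were called higher and 30.7% lower in the Atg5 knockout, and 25.3% and 27.2% in the double knockout. Irf9, the DNA-binding subunit of the interferon complex, rose by 2.70 ± 0.08 log2 units and 3.34 ± 0.08 in the 2 lines (edgeR adjusted p = 3.17e-20 and 2.35e-22). Irf1, a transcription factor shared by interferon and inflammatory signalling, read 9.43, 9.52 and 9.72 CPM in the control, 10.2, 9.86 and 9.95 in the Rnf31 knockout, 37.4, 39.3 and 35.1 in the Atg5 knockout and 23.4, 21.0 and 20.7 in the double knockout vehicle libraries, without overlap between any of them. It rose by 1.96 ± 0.08 log2 units and 1.18 ± 0.08, and was lower in the double than in the Atg5 knockout (-0.78 ± 0.07, edgeR adjusted p = 2.59e-09), where Irf9 (0.64 ± 0.07, edgeR adjusted p = 2.11e-08) was higher. The 1 lower gene of this list in the Atg5 knockout was the receptor subunit Ifnar1 (-0.27 ± 0.05, edgeR adjusted p = 3.03e-05). Of 14 nucleic acid sensing genes tested, 11 were higher and 2 lower in the Atg5 knockout, and 10 were higher and 0 lower in the double knockout by edgeR (10 at an unadjusted p under 0.05, and 0 lower by DESeq2). With vehicle, Cgas read 15.4, 17.55 and 18.07 CPM in control and 13.7, 10.93 and 11.95 in the Atg5 knockout. Sting1 read 30.42, 24.73 and 28.02 CPM in control and 20.62, 21.55 and 18.18 in the Atg5 knockout, also lower in every library. The RNA sensors Ddx58 (RIG-I), Dhx58 and Ifih1 (MDA5) rose by 3.86 ± 0.11 log2 units, 3.43 ± 0.13 and 1.83 ± 0.09 in the Atg5 knockout and were higher again in the double knockout by 0.62 ± 0.08, 0.40 ± 0.10 and 0.79 ± 0.08 (edgeR adjusted p = 8.54e-07, 0.00293 and 8.13e-09).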

How the data were processed

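The authors deposited 1 table of expected counts per gene symbol, that is counts estimated per gene and not normalized. The unit was inferred from whole numbers with unequal totals. Rounding to whole numbers changed none. STAR, RSEM and DESeq2 are named in the submitters' processing notes, with the builds GRCm38 and mm10. Their versions, the annotation and whether strand was used in counting are not given there. Reads of genes that overlap, or lie antisense to each other, may therefore be mixed. A row with a blank name (mean 0.140% of counts) was left out.

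Groups came from the labels. The counts were fitted in edgeR 4.0.16 (R 4.3.3) with TMM scaling, after filterByExpr had removed 2211 genes with few counts, and the quasi-likelihood test on 8 group means over 24 libraries, in 13 comparisons, with Benjamini-Hochberg adjustment over 13527 genes. The test was also run on counts simulated from control vehicle levels. These held no outlying library and no trend with transcript length, so that run does not cover these features of the real libraries. Members and lists were chosen with earlier results of these data known. Every library is given for the first 2 members of each role and for members called against the majority of their comparison, and of the 2 pathway lists the 3 genes with the smallest adjusted p in the Atg5 knockout, and lower ones where few. 1 of these pathway genes is not reported here. Counting intervals are 95%, and the floor for a group at 0 is 3 counts. Gene coordinates are from GENCODE M21 (GRCm38), and promoter windows from RefSeq (GRCm38.p6). Alternatives were RLE factors, no filter, a mean of 1 CPM, a replicate term, a transcript length offset, DESeq2 1.42.0, only the groups compared, and leaving out each library.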

Additional observations from a re-analysis of the deposited data

Results flagged for a closer look

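With vehicle, the effect of Rnf31 loss differed between cells with and without Atg5 for 21 members by the test of the difference itself (edgeR, adjusted p under 0.05). Of the 33 tested, 20 were positive and 1 negative, where 18.9% of all genes departed upward and 21.8% downward. The log2 difference, the effect where Atg5 was lost minus the effect where it was present, was 2.39 for Ifit1, 2.22 for Isg15, 2.15 for Ifit3, 2.12 for Oasl1, 2.11 for Mx2, 1.79 for Mx1 and 1.69 for Ifit3b. It was 1.60 for Usp18, 1.41 for Rtp4, 1.39 for Xaf1, 1.27 for Rsad2, 0.75 for Bst2, 0.72 for Oas1a and 0.66 for Ifitm3. The other positive values were 0.65 for Ifi27, 0.64 for Lgals3bp, 0.62 for Ifit2, 0.59 for Parp14, 0.43 for Parp9 and 0.39 for Parp12. The 1 negative value was -0.67 for Uba7, a call lost in 16 of 19 alternatives. The calls of Usp18, Xaf1, Oasl1, Oas1a and Parp14 were also lost without single libraries. The response to TNFα differed between the Atg5 knockout and the control for 2 members, by 0.77 for Oas1a and 0.27 for Ifi27, and both of these calls were lost without control vehicle replicate 2. Over all genes tested, 4.94% were called higher and 6.42% lower in this difference. The 2 of 33 members called higher are close to that share.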

How the results depend on the processing

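Of 143 member values that passed the test, none reversed under any alternative, and 79 of their 1995 recomputed values no longer passed. Of 286 that did not pass, 42 of 4276 did. Over 84 pairs of libraries with the same replicate number, the correlation of deviations lay between -0.098 and 0.0788, with a median of 0.00784. The median for different numbers was -0.00547, and 13 of 24 libraries correlated best with their own number. This check does not settle whether the numbers mark pairs. Over all genes, the replicate block raised the calls for TNFα in control from 13 higher and 0 lower to 151 and 31. In the Atg5 knockout it left 0 higher and 0 lower. With the replicate block, 2 counts of members changed: 0 in place of 1 lay below the sum of the single knockouts (Uba7, edgeR adjusted p = 0.0511), and 3 in place of 2 responded more to TNFα in the Atg5 knockout than in control (Bst2 added, edgeR adjusted p = 0.0364). The first count was also 0 with no low-count filter, with a mean of at least 1 CPM, with the transcript length offset and with DESeq2, and 0 to 2 leaving out 1 library. Members lower in the double than in the Atg5 knockout numbered 1 with no low-count filter and 1 to 2 leaving out 1 library with vehicle, and 1 to 2 with TNFα. DESeq2 called 1 member lower for TNFα in control and 1 lower for the response difference of the double knockout, where edgeR called 0. TNFα in the Rnf31 knockout gave 0 to 1 higher leaving out 1 library. For the Atg5 knockout against control in the response to TNFα, 2 higher became 3 with the replicate block, 1 with no filter, 0 with the transcript length offset, 4 with DESeq2, 0 with only the groups compared and 0 to 4 leaving out 1 library. The cause was not tested. Leaving out a library left 2 in its group, and the spread was shared over all groups. The promoter share was 39.1%, or 47.8% with the shorter core. Members near 0 counts in control cells (Oas2, Oas3, Ifi44, Sp100) are limited by depth, and their folds are known only within wide counting intervals.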
